A study of Mus musculus with 10 samples.

Results

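Complement and coagulation are cascades of plasma proteins made largely in the liver, and the 45 mouse genes described here were chosen by their known roles in these cascades, 23 for complement and 22 for clotting, its inhibitors and fibrinolysis. A probe set counted for a gene where the array's annotation gave it exactly 1 gene symbol, and a gene with several such probe sets was read by its brightest one on average. In this way 41 of the 45 genes were measured, 20 of complement and 21 of coagulation, by 63 of the 45101 probe sets. C3, Cfd, Cpb2 and C4b were not analysed here, and the C4b probe set on the array also names C4a. Each of the 41 genes averaged 4 or more on the log2 scale, the filter used for testing, and they were set beside the 8535 genes that passed it. The choice by role used no value of this comparison but was made with earlier results of these data known.

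In complement, recognition molecules such as the mannose-binding lectins activate proteases that cleave the central components. The cleavage products coat targets, and the terminal components C5 to C9 then assemble into a pore in the target membrane, which regulators on host cells and in plasma restrain. In coagulation, a chain of liver-made proteases ends in thrombin, which turns fibrinogen into fibrin. Antithrombin, protein C and tissue factor pathway inhibitor limit that chain, and plasmin dissolves the clot. Hepatocytes secrete most of these proteins, and several are induced in the acute phase response to inflammation.

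Liver RNA of 10 female mice was hybridised to 1 array per animal to ask how hepatic expression differs between human apolipoprotein E isoforms. In 5 mice both copies of the mouse Apoe gene had been replaced by human APOE4 (B6.129P2-Apoetm3(APOE*4)Mae N8), and in 5 by human APOE3 (B6.129P2-Apoetm2(APOE*3)Mae N8), on a C57BL/6 background. In both groups the human sequence stood under the mouse Apoe promoter, and no mouse with its own Apoe gene was included. Every difference is thus between the APOE4 and APOE3 lines. The isoform cannot be told apart from anything else that differs between the lines. All animals were 3 months old and ate a diet with 2 g/kg cholesterol in which milk fat gave 41% of energy, for 6 weeks per the design text and 2 months per the growth protocol. Differences are APOE4 minus APOE3 on the log2 scale, on which 1 unit is a doubling, each with its standard error (SE) from the fit of 5 animals per genotype.

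The 10 arrays correlated with each other at 0.9696 to 0.9900, and their medians lay between 2.62 and 2.67 log2. Of 12 hepatocyte markers 11 were tested, and their mean was between 13.05 and 13.31 log2 on the APOE4 arrays and between 12.91 and 13.40 on the APOE3 arrays. The cholangiocyte markers Krt19, Krt7, Epcam and Sox9 had means below 4. The labels give no batch, slide or scan date. APOE3 replicates 1 and 4 stood apart from the other animals in the genes described here, being the lowest or highest in many of them, and the differences without one or the other are given for the genes they moved most. In whole liver, fewer cells of a type and less RNA per cell cannot be told apart.

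None of the 58 tested probe sets of the 41 genes passed an adjusted p of 0.05 (limma, Benjamini-Hochberg over 14732 probe sets), against 12 of all probe sets, 0.0815%, and 7 of all tested genes, 0.0820%. The smallest adjusted p among the 41 genes was 0.58. At an unadjusted p of 0.05, 1 of the 41 genes differed, C9, which was lower in APOE4 livers. That is 2.44% of the genes described here, against 7.16% of all 8535 tested genes (4.93% higher and 2.23% lower). No gene of the 41 had APOE4 animals that all lay on one side of the APOE3 animals, against 1.75% of all tested genes and 2.02% of all tested probe sets. The 41 differences ran from -0.33 to 0.26, with 24 above 0 and 17 below. The median was 0.03 in complement (11 genes above 0 and 9 below) and 0.03 in coagulation (13 above and 8 below), beside 0.04 over all tested genes. With each array centred on its median, 8 of 20 complement and 8 of 21 coagulation genes were above 0, so the sign of either group's median depends on the scaling. Without APOE3 replicate 1 the medians were -0.06 in complement and -0.01 in coagulation.

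The precision differed between the cascades, and so did the brightness. A mean of at least 10 was reached by 65% of complement and 85.7% of coagulation genes, and its part was not tested. The median SD among animals of 1 genotype was 0.18 log2 in complement and 0.13 in coagulation, against 0.22 over all tested genes and 0.15 over the 1367 genes with a mean of at least 10. The 95% interval of the difference lay wholly within 1.5-fold in either direction for 14 of 20 complement genes and 19 of 21 coagulation genes. Over all tested genes this held for 75.1%, and over those with a mean of at least 10 for 89.7%. The 6 complement genes with wider intervals were Masp1, Cfp, C6, C8a, C8b and Cd55, and the 2 coagulation genes were F11 and Tfpi.

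**Figure D1:**
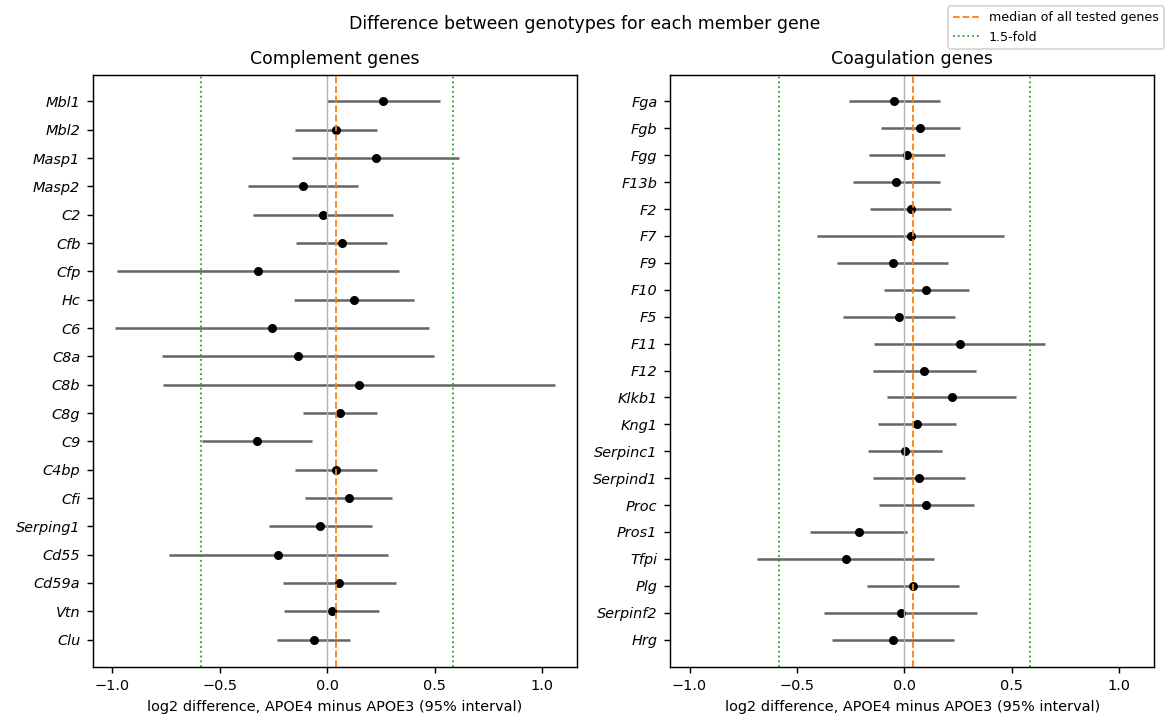
Log2 difference between genotypes, APOE4 minus APOE3, for the 20 complement and 21 coagulation genes, grouped by role from top to bottom; points are estimates from 5 animals per genotype, lines are 95% intervals, dotted lines mark 1.5-fold and the dashed line the median of all tested genes. Only the interval of C9 lies wholly on one side of 0, and 33 of the 41 intervals lie within the dotted lines.

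The lectin pathway begins with Mbl1 and Mbl2, which encode the mannose-binding lectins A and C that bind sugars on microbes. Mbl1 had 11.20, 11.28, 11.08, 11.48 and 11.25 log2 in APOE4 livers, against 11.18, 10.73, 11.04, 11.20 and 10.83 log2 in APOE3 livers. APOE4 replicates 2, 4 and 5 lay above every APOE3 animal and APOE3 replicates 2, 3 and 5 below every APOE4 animal, and the groups overlapped in the rest. Its difference was 0.26 ± 0.12 (SE), with limma adjusted p = 0.628, the second smallest unadjusted p among the 41 genes at 0.052. Mbl2 had 12.74, 12.67, 12.62, 12.71 and 12.70 log2 in APOE4 livers, against 12.57, 12.82, 12.61, 12.73 and 12.50 log2 in APOE3 livers. The APOE3 values lay on both sides of the APOE4 values, with a difference of 0.04 ± 0.09 (SE), and that sign turned when each array was centred on its median (-0.01).

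Masp1 and Masp2 encode the serine proteases that ride on these lectins and cleave the next components. Masp1 had 10.37, 10.41, 10.70, 10.22 and 11.003 log2 in APOE4 livers, against 10.03, 10.06, 10.48, 10.29 and 10.72 log2 in APOE3 livers. Replicate 5 was the highest animal in each genotype and the groups overlapped, with a difference of 0.23 ± 0.18 (SE) and limma adjusted p = 0.762. It was 0.11 without APOE4 replicate 5 and 0.33 without APOE3 replicate 5. Its other tested probe sets gave 0.05, 0.17 and -0.10, so the sign was not shared by all 4. Masp2 gave -0.11 ± 0.12 (SE) by its brighter probe set and 0.23 ± 0.13 by the other, with limma adjusted p of 0.826 and 0.678. The 4 genes of the lectin pathway had a median difference of 0.13, with 3 above 0, and a median of 0.07 without APOE4 replicate 5.

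C2, a protease of the classical and lectin pathways, was the only early component measured. It had 9.07, 8.89, 8.94, 9.09 and 9.34 log2 in APOE4 livers, against 8.81, 9.54, 8.94, 9.23 and 8.92 log2 in APOE3 livers. The APOE3 animals spanned the APOE4 range, from replicate 1 to replicate 2 as the lowest and highest of all, and the difference was -0.02 ± 0.15 (SE) with limma adjusted p = 0.981. Without APOE3 replicate 2 the difference was 0.09, and without APOE3 replicate 1 it was -0.09.

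Cfb encodes the protease of the alternative pathway convertase and Cfp encodes properdin, which stabilises it. Cfb had 12.00, 11.87, 12.14, 12.15 and 12.20 log2 in APOE4 livers, against 11.86, 12.13, 11.95, 12.11 and 11.99 log2 in APOE3 livers. The ranges nearly coincided, and the difference was 0.07 ± 0.10 (SE) with limma adjusted p = 0.882, and 0.03 without APOE3 replicate 1. Cfp had 8.04, 7.27, 7.26, 7.88 and 7.23 log2 in APOE4 livers, against 7.40, 7.83, 7.57, 8.99 and 7.51 log2 in APOE3 livers. APOE3 replicate 4 stood far above the other 9 animals, and the difference of -0.32 ± 0.30 (SE) was -0.04 without it. In the same animal 8 of 11 Kupffer cell and macrophage markers were at their highest and 1, Cd163, at its lowest, 6.37 log2. Their median deviation there was 0.73 log2 from the mean of all arrays. Over all arrays the median deviation of these markers ran from -0.47 to 0.35 in APOE4 livers and from -0.27 to 0.73 in APOE3 livers. The part of these cells in the Cfp values was not tested.

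The terminal components build the membrane attack complex. C9, the component that polymerises into the pore, had 11.85, 11.79, 11.57, 11.87 and 11.69 log2 in APOE4 livers, against 11.87, 12.23, 12.07, 12.34 and 11.88 log2 in APOE3 livers. The ranges met where APOE4 replicate 4 and APOE3 replicate 1, both at 11.87, overlapped by less than 0.01 log2, and APOE3 replicates 2, 3, 4 and 5 lay above every APOE4 animal. C9 averaged 11.75 ± 0.12 log2 in APOE4 livers and 12.08 ± 0.21 log2 in APOE3 livers (SD, n = 5 each). The difference was -0.33 ± 0.12 (SE), a ratio of 0.798, with a 95% interval from -0.58 to -0.07, an unadjusted p of 0.0166 and limma adjusted p = 0.58. It was lower in APOE4 livers at an unadjusted p of 0.05 in each of the 10 fits that left out 1 animal, with differences from -0.38 to -0.26, and it did not pass the adjusted threshold in any of the 22 fits. When arrays were centred or quantile normalised again, its groups no longer overlapped. The share of all tested genes without overlap was not computed in those settings, and after centring Clu did not overlap either.

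**Figure D2:**
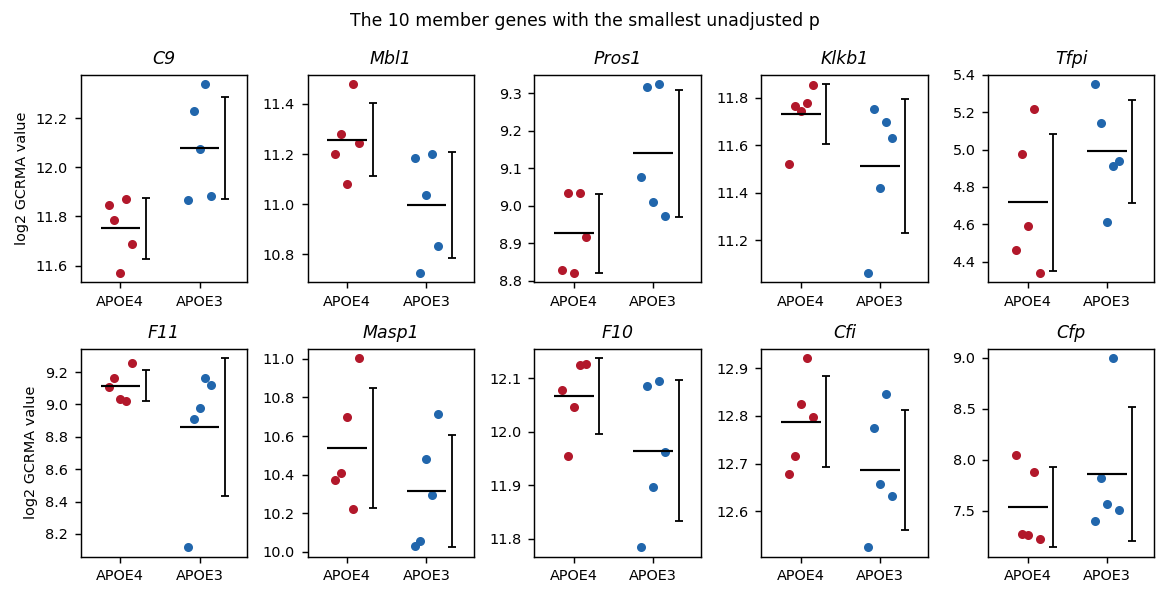
Log2 value of each animal (points), the mean of 5 animals (horizontal line) and its SD (vertical bar) in APOE4 and APOE3 livers for the 10 genes with the smallest unadjusted p; each panel has its own axis, which does not start at 0. C9 is lower in APOE4 livers, whose highest animal is level with the lowest APOE3 animal, while F11 and Cfp each hold 1 APOE3 animal far from the rest, at 8.12 and 8.99 log2.

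C5 is encoded by Hc and starts the assembly. Hc had 12.00, 11.86, 12.08, 12.28 and 12.27 log2 in APOE4 livers, against 11.63, 12.00, 12.02, 12.22 and 12.00 log2 in APOE3 livers, with APOE3 replicate 1 lowest of all and a difference of 0.12 ± 0.13 (SE) that was 0.04 without it. C6 had 4.75, 4.71, 4.29, 4.79 and 4.95 log2 in APOE4 livers, against 4.17, 4.73, 4.78, 6.35 and 4.76 log2 in APOE3 livers, with APOE3 replicate 4 more than 1 log2 unit above every other animal. The C6 difference of -0.26 ± 0.33 (SE) was 0.09 without that animal and -0.46 without APOE3 replicate 1. With a mean of 4.83 log2, the lowest of the 41 genes, C6 lay near the filter.

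C8 is a complex of 3 chains with a gene each. C8g, whose chain is a lipocalin, had 12.60, 12.72, 12.60, 12.60 and 12.64 log2 in APOE4 livers, against 12.68, 12.56, 12.53, 12.60 and 12.50 log2 in APOE3 livers. Its values varied little and overlapped, with a difference of 0.06 ± 0.08 (SE) and limma adjusted p = 0.867. C8a had 11.29, 11.19, 10.99, 11.94 and 11.37 log2 in APOE4 livers, against 10.45, 11.79, 11.76, 12.11 and 11.35 log2 in APOE3 livers. C8b had 9.08, 9.26, 9.41, 9.85 and 9.96 log2 in APOE4 livers, against 7.59, 9.53, 9.91, 9.98 and 9.81 log2 in APOE3 livers. APOE3 replicate 1 was the lowest animal in both, by more than 1 log2 unit below every other animal in C8b, and APOE3 replicate 4 was the highest in both. The differences were -0.14 ± 0.29 (SE) for C8a and 0.15 ± 0.41 (SE) for C8b. They were -0.40 and -0.30 without APOE3 replicate 1, and 0.02 and 0.30 without APOE3 replicate 4, so the sign of each depended on a single animal.

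Deviations of the 10 animals from their genotype mean were correlated between chains, for the 3 C8 and the 3 fibrinogen genes, 6 pairs in all, with exact permutation tests over all pairings of animals within genotype. C8a and C8b had r = 0.849 (exact p = 0.0242, adjusted 0.0362) and rho = 0.709 (exact p = 0.0334, adjusted 0.0501). The r was 0.492 without APOE3 replicates 1 and 4, the animals farthest from the median of C8a, so the relation rests on those animals. It was 0.494 without APOE3 replicate 1 alone (exact permutation p = 0.228). C8g had r = -0.45 with C8a (exact p = 0.264, adjusted 0.264) and rho = -0.0788 (exact p = 0.86, adjusted 0.86). With C8b it had r = -0.642 (exact p = 0.104, adjusted 0.125) and rho = -0.297 (exact p = 0.478, adjusted 0.574), and neither passed. Without the animals farthest from the median of the first gene these were -0.129 and -0.442. Values of genes on 1 array share that array and its normalization.

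C8a and C8b shared their lowest and highest animals, and their promoter windows are shown as those of chains of 1 complex, 250 bases before to 50 after the gene start in RefSeq GRCm38.p6, 5′ to 3′ on the gene's strand. Capitals mark GTTAAT or its reverse complement ATTAAC, letters of the binding site of HNF1, a hepatocyte transcription factor. They begin at position -107 in C8a (chr4:104876349-104876648, minus strand) and at position -206 in C8b (chr4:104766067-104766366, plus strand), counted from the start.
C8a: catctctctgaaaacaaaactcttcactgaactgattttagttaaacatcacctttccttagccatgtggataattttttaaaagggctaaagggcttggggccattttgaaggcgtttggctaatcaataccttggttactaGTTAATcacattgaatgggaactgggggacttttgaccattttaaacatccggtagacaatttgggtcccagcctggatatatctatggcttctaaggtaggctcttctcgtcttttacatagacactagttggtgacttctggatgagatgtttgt
C8b: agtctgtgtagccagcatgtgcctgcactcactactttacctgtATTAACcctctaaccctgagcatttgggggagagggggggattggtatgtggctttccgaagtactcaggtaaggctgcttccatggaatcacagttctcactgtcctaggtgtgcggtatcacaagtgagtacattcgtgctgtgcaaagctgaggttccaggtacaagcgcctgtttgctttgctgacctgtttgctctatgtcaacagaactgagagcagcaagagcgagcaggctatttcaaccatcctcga
RefSeq windows were matched for 32 of the 41 genes, without Masp1, C2, Cfb, Cfi, Serping1, Clu, Kng1, Proc and Plg. GTTAAT on either strand was in 11 of the 32 windows, 34.4%, against 7.2% of the 27025 windows in the table. The 11 were those of Cd55, C4bp, F13b, Hc, F2, Fga, Fgb, C8b, C8a, Vtn and Cfp. A match describes the letters and is not a measured binding site.

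Regulators keep these components in check. Cfi encodes the protease that inactivates the central components, and had 12.68, 12.71, 12.83, 12.92 and 12.80 log2 in APOE4 livers, against 12.52, 12.78, 12.66, 12.85 and 12.63 log2 in APOE3 livers. APOE3 replicate 1 was the lowest animal and the groups overlapped, with a difference of 0.10 ± 0.09 (SE) and limma adjusted p = 0.8, and 0.06 without that animal. Clu encodes clusterin, a chaperone that binds the terminal complex, and had 13.99, 13.93, 14.03, 13.88 and 14.00 log2 in APOE4 livers, against 14.00, 14.13, 13.95, 14.00 and 14.05 log2 in APOE3 livers. Its difference was -0.06 ± 0.08 (SE), and the other 3 probe sets gave 0.06, -0.01 and -0.08, so the sign was not shared. The other probe set of Vtn, for vitronectin, gave -0.11 against 0.02 by the brighter one.

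The membrane-bound regulator Cd55, which speeds the decay of convertases, had 5.91, 6.48, 6.22, 6.27 and 5.73 log2 in APOE4 livers, against 6.47, 6.30, 5.65, 7.05 and 6.27 log2 in APOE3 livers. Its 3 probe sets gave differences of -0.23, -0.36 and -0.70, and in each APOE3 replicate 4 was the highest animal, at 7.05, 6.76 and 7.11 log2. Without that animal the difference by the brightest probe set was -0.05. In this animal 8 of 11 Kupffer cell and macrophage markers were at their highest and 1 at its lowest. Their part was not tested. C4bp, Serping1 (C1 inhibitor), Cd59a and Vtn had differences between -0.03 and 0.06, with adjusted p (limma) of 0.925 to 0.969, by their brightest probe sets. The other Cd59a probe set gave 0.23 ± 0.16 (SE) with limma adjusted p = 0.724. Without APOE3 replicate 1, Serping1 was at -0.11 and Vtn at -0.05.

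Fibrinogen is assembled from 3 chains encoded by Fga, Fgb and Fgg, which lie together on chromosome 3. Fgb had 13.99, 13.92, 14.02, 14.06 and 14.09 log2 in APOE4 livers, against 13.79, 13.98, 14.03, 14.00 and 13.91 log2 in APOE3 livers. Fga had 13.33, 13.22, 13.34, 13.34 and 13.42 log2 in APOE4 livers, against 13.18, 13.28, 13.52, 13.55 and 13.34 log2 in APOE3 livers. Fgg had 13.82, 13.77, 13.85, 13.93 and 13.92 log2 in APOE4 livers, against 13.73, 13.83, 13.96, 13.88 and 13.82 log2 in APOE3 livers. APOE3 replicate 1 was the lowest animal in all 3 genes, and the groups overlapped throughout. The differences were 0.07 ± 0.08 (SE) for Fgb, -0.05 ± 0.10 (SE) for Fga and 0.01 ± 0.08 (SE) for Fgg, with limma adjusted p of 0.844, 0.923 and 0.978. Without APOE3 replicate 1 they were 0.04, -0.10 and -0.01. F13b, a subunit of the transglutaminase that crosslinks fibrin, differed by -0.04 ± 0.09 (SE). All 4 genes of this group had 95% intervals within 1.5-fold.

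In the deposited scaling the 3 fibrinogen genes moved together from animal to animal. Fgb and Fgg had r = 0.934 (exact p = 0.000278, adjusted 0.00167) and rho = 0.939 (exact p = 0.000556, adjusted 0.00333). For Fga with Fgg r was 0.849 (exact p = 0.00361, adjusted 0.0103) and rho 0.83 (exact p = 0.00556, adjusted 0.0143). For Fga with Fgb r was 0.837 (exact p = 0.00514, adjusted 0.0103) and rho 0.867 (exact p = 0.00715, adjusted 0.0143). Without the 2 animals farthest from the median of the first gene of a pair, r was 0.868, 0.858 and 0.758 in the same order, and without APOE3 replicate 1 it was 0.914, 0.762 and 0.716. Of 8533 other tested genes, 2 were at least as correlated with Fgb as Fgg was, 51 with Fga as Fgg was, and 70 with Fga as Fgb was. With the arrays quantile normalised again, r was 0.63 for Fgb with Fgg, 0.742 for Fga with Fgg and 0.469 for Fga with Fgb, and no pair passed an adjusted p of 0.05 (exact permutation, 0.119, 0.0692 and 0.209).

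**Figure D3:**
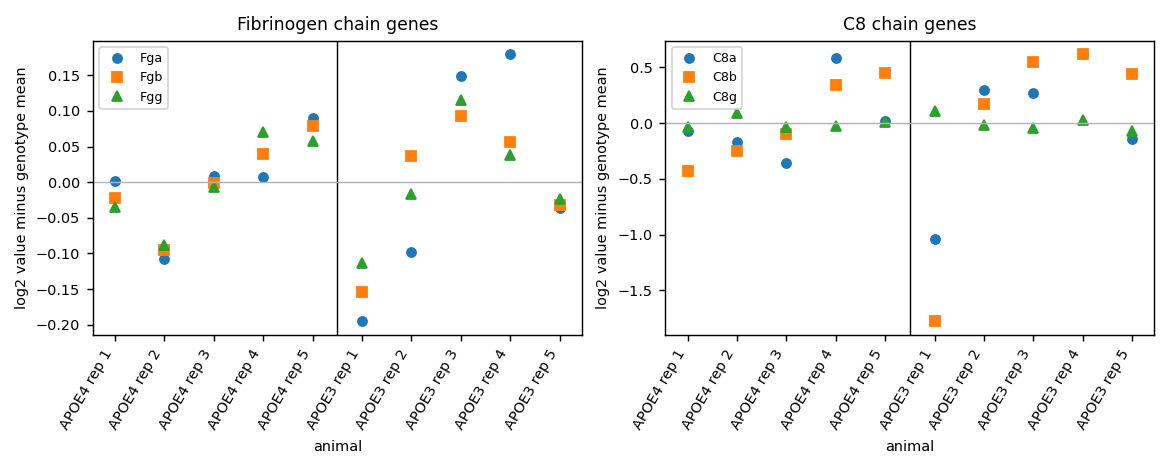
Log2 value minus the genotype mean in each of the 5 APOE4 and 5 APOE3 animals for the fibrinogen chain genes Fga, Fgb and Fgg and the C8 chain genes C8a, C8b and C8g; the panels differ in scale. The 3 fibrinogen genes lie close together in most animals, and C8a and C8b are both more than 1 log2 unit below their genotype mean in APOE3 replicate 1, where C8g is not.

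The windows of the fibrinogen genes are shown as those of chains whose values followed each other across the animals in the deposited scaling. Capitals mark GTTAAT or ATTAAC, and CTGGGAA, the core of the acute phase element that STAT3 binds. ATTAAC begins at position -43 in Fga (chr3:83025903-83026202, plus strand) and -29 in Fgb (chr3:83049814-83050113, minus strand). CTGGGAA begins at -91 in Fgb and at -13 in Fgg (chr3:83007474-83007773, plus strand).
Fga: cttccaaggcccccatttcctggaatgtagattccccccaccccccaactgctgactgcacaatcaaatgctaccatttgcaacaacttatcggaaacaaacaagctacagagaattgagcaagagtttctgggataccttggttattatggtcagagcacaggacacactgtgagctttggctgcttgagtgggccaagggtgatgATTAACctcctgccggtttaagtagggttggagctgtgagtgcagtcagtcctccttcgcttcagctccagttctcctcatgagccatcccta
Fgb: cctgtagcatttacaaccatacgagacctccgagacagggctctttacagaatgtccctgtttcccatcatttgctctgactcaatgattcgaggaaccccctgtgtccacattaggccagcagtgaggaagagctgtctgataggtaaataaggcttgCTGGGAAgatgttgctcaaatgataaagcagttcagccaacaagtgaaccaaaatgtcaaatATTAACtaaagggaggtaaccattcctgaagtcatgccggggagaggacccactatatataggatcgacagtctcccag
Fgg: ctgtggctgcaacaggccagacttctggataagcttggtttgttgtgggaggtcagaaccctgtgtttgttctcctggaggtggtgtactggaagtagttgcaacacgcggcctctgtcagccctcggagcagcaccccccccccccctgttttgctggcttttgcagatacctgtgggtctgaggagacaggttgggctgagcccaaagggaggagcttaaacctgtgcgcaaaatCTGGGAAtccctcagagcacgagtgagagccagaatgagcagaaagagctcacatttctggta
CTGGGAA on either strand was in 7 of the 32 windows, 21.9%, those of Tfpi, Fgg, Fgb, Masp2, Vtn, C6 and F9, against 11.1% of all windows. TTNNGNAA, the C/EBP core, was in 16 of 32, 50%, against 40.7%. TATAAA was in 5 of 32, 15.6%, against 14.2%, and CAAAGTCC, letters of an HNF4 site, in 0 of 32, against 1.44%. Both strands were searched, and no match of one motif overlapped that of another in the 5 windows printed. Across the 3 fibrinogen windows no single one of these motifs was present in all, and this says nothing about the factors.

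The vitamin K-dependent zymogens are proteases whose activation carries the clotting chain. F2 encodes prothrombin and had 13.15, 13.18, 13.20, 13.19 and 13.37 log2 in APOE4 livers, against 13.05, 13.20, 13.17, 13.33 and 13.20 log2 in APOE3 livers. APOE4 replicate 5 was the highest animal and APOE3 replicate 1 the lowest, with a difference of 0.03 ± 0.09 (SE) and limma adjusted p = 0.948. Leaving out either animal gave -0.01. F10, whose product cleaves prothrombin, had 12.08, 11.95, 12.05, 12.12 and 12.13 log2 in APOE4 livers, against 11.78, 12.09, 11.90, 12.10 and 11.96 log2 in APOE3 livers. Here too APOE3 replicate 1 was lowest and APOE4 replicate 5 highest, with a difference of 0.10 ± 0.09 (SE) and limma adjusted p = 0.792, and its other probe sets gave 0.02 and 0.14. Without APOE3 replicate 1 the F10 difference was 0.06.

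Factor VII, which starts the extrinsic pathway with tissue factor, is encoded by F7. F7 had 9.83, 9.72, 10.18, 9.96 and 10.43 log2 in APOE4 livers, against 9.31, 9.99, 10.18, 10.28 and 10.21 log2 in APOE3 livers. Its difference was 0.03 ± 0.20 (SE), and -0.14 without APOE3 replicate 1, the lowest animal. F9, the gene of the protease lost in haemophilia B, differed by -0.05 ± 0.12 (SE), and by -0.11 without that animal. F5 encodes the cofactor of factor X and had 11.50, 11.78, 11.79, 11.89 and 11.91 log2 in APOE4 livers, against 11.49, 11.93, 11.87, 11.96 and 11.76 log2 in APOE3 livers. The lowest animals were APOE3 replicate 1 and APOE4 replicate 1, at 11.49 and 11.50 log2, and the difference was -0.03 ± 0.12 (SE) with limma adjusted p = 0.967. It was -0.10 without APOE3 replicate 1 and 0.04 without APOE4 replicate 1. The second F5 probe set gave 0.04.

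The 4 genes of the contact system, which starts clotting on charged surfaces, all had differences above 0, with a median of 0.16 that was not tested as a group and was 0.06 without APOE3 replicate 1. F11 had 9.10, 9.16, 9.03, 9.02 and 9.25 log2 in APOE4 livers, against 8.12, 8.91, 8.98, 9.17 and 9.12 log2 in APOE3 livers. All 5 APOE4 animals and 4 APOE3 animals lay between 8.91 and 9.25 log2, and APOE3 replicate 1 lay below them. The F11 difference was 0.26 ± 0.18 (SE) with limma adjusted p = 0.733, and 0.07 without that animal. Klkb1 encodes plasma prekallikrein and had 11.52, 11.77, 11.74, 11.78 and 11.85 log2 in APOE4 livers, against 11.06, 11.75, 11.42, 11.70 and 11.63 log2 in APOE3 livers. The groups overlapped, and the difference of 0.22 ± 0.14 (SE), with limma adjusted p = 0.703, was 0.11 without APOE3 replicate 1. Kng1, which encodes the high molecular weight kininogen that carries prekallikrein, had 13.42, 13.38, 13.47, 13.49 and 13.53 log2 in APOE4 livers, against 13.28, 13.55, 13.37, 13.39 and 13.40 log2 in APOE3 livers. Its difference was 0.06 ± 0.08 (SE) with limma adjusted p = 0.872, and that of F12, the first protease of the system, was 0.09 ± 0.11 (SE). Without APOE3 replicate 1 these were 0.03 and 0.04. All 4 stayed above 0 in each of the 22 fits, while F11, F12, Klkb1 and Kng1 were each at their lowest in APOE3 replicate 1.

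Of the anticoagulant genes, Serpinc1 encodes antithrombin and had 13.22, 13.22, 13.28, 13.29 and 13.41 log2 in APOE4 livers, against 13.22, 13.31, 13.32, 13.29 and 13.26 log2 in APOE3 livers. The genotypes had the same mean of 13.28 log2, with a difference of 0.0022 ± 0.08 (SE) and a 95% interval from -0.17 to 0.17. Pros1 encodes protein S, the cofactor of activated protein C, and had 8.83, 9.03, 8.82, 9.03 and 8.92 log2 in APOE4 livers, against 9.08, 9.32, 9.01, 9.32 and 8.97 log2 in APOE3 livers. APOE3 replicates 1, 2 and 4 lay above every APOE4 animal, and the rest overlapped. Pros1 differed by -0.21 ± 0.10 (SE) with an unadjusted p of 0.0624 and limma adjusted p = 0.637, and leaving out 1 animal gave -0.26 to -0.17.

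Tfpi, the inhibitor of the tissue factor complex, had 4.46, 4.97, 4.59, 5.22 and 4.34 log2 in APOE4 livers, against 5.35, 5.14, 4.61, 4.91 and 4.94 log2 in APOE3 livers. These values lay near the filter, and its other 3 probe sets had means below 4. The difference was -0.27 ± 0.19 (SE) with limma adjusted p = 0.73, and the groups overlapped. It was -0.18 without APOE3 replicate 1, the highest animal, or without APOE4 replicate 5, the lowest. Serpind1 (heparin cofactor II) and Proc (protein C) differed by 0.07 ± 0.10 (SE) and 0.10 ± 0.10 (SE), and by 0.02 and 0.06 without APOE3 replicate 1.

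In fibrinolysis, Plg encodes plasminogen and had 13.03, 13.08, 13.15, 13.21 and 13.34 log2 in APOE4 livers, against 12.90, 13.18, 13.12, 13.24 and 13.16 log2 in APOE3 livers. APOE4 replicate 5 was the highest and APOE3 replicate 1 the lowest animal, with a difference of 0.04 ± 0.10 (SE) and limma adjusted p = 0.933. The plasmin inhibitor gene Serpinf2 differed by -0.02 ± 0.16 (SE), and Hrg, whose product binds plasminogen, by -0.05 ± 0.13 (SE). The signs of Plg, Serpinf2 and Hrg each changed in at least 1 of the 22 fits. Without APOE3 replicate 1 they were -0.01, -0.15 and -0.13.

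Many of these genes shared the animal with the lowest value. APOE3 replicate 1 was the lowest of the 10 animals in 26 of 41 genes, 63.4%, in 16 of 21 coagulation and 10 of 20 complement genes. Over all tested genes it was the lowest in 12.3%. Its median deviation from the mean of all arrays was -0.21 log2 over the 41 genes and -0.0002 over all tested genes. It was the lowest in 22 of the 41 after centring each array and in 25 after a renewed quantile normalization. Leaving it out turned the sign of the log2 difference in 7 of the 41 genes. In 30 in all, the difference turned or its size changed by a factor of over 1.5. That factor applies to the log2 difference and not to expression, so small differences near 0 are counted too. The same counts were 7 and 20 for APOE3 replicate 4 and 6 and 21 for APOE4 replicate 5. APOE3 replicate 1 had 5 of 11 hepatocyte markers and 10 of 18 acute phase genes at their lowest, with median deviations of -0.20 and -0.23. It had 0 of 11 Kupffer cell and macrophage markers at their lowest. The part of these lists in the pattern was not tested.

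APOE4 replicate 5 was the highest animal in 12 of the 41 genes, 10 of them coagulation genes, which is 29.3% against 13.4% of all tested genes. APOE3 replicate 4 was the highest in 14, 8 of them complement genes, which is 34.1% against 9.46%. After centring these counts were 8 and 17, and after renewed quantile normalization 13 and 12. Hepatocyte markers were highest in APOE3 replicate 4 in 5 of 11 genes and in APOE4 replicate 5 in 1 of 11. Kupffer cell and macrophage markers were at their lowest in APOE4 replicate 5 in 6 of 11. A further setting, chosen after seeing the data, left out both APOE3 replicates 1 and 4. In it C9 and Mbl1 passed an unadjusted p of 0.05, against 10.2% of all tested probe sets. C8g, C9 and Mbl1 did not overlap there. With fewer APOE3 animals groups separate more often by chance, and the share over all genes was not computed. Still none passed the adjusted threshold (limma, smallest adjusted p = 0.394).

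**Figure D4:**
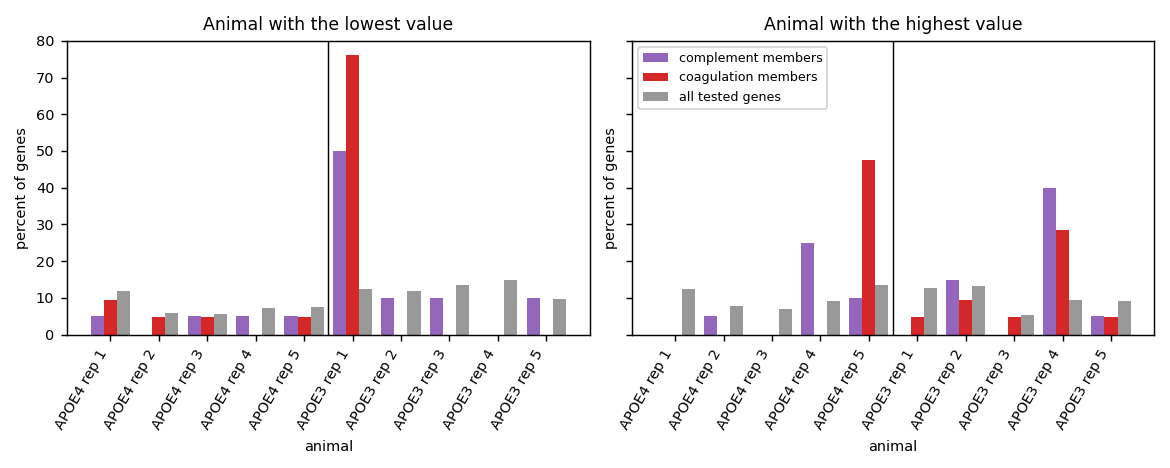
Percent of the 20 complement, 21 coagulation and all 8535 tested genes for which each animal, APOE4 left and APOE3 right of the line, had the lowest (left panel) or highest (right panel) log2 value. APOE3 replicate 1 is the lowest animal for 76.2% of coagulation and 50% of complement genes, against 12.3% of all tested genes.

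**Figure D5:**
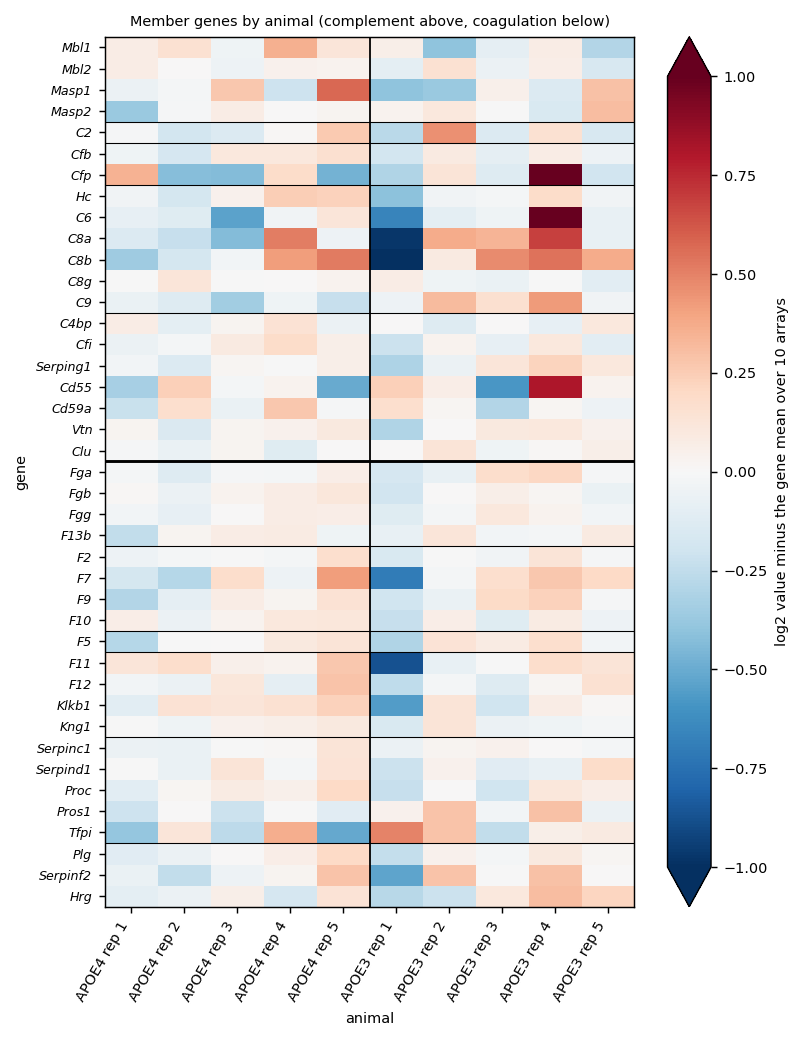
Log2 value minus the gene's mean over 10 arrays for the 41 genes (complement above the thick line, coagulation below, roles separated by thin lines) in 5 APOE4 and 5 APOE3 animals; values beyond 1 in either direction take the end colours. The column of APOE3 replicate 1 is blue in most coagulation genes, and that of APOE3 replicate 4 is red in C6, Cfp, C8a, C8b and Cd55.

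Of 30 further complement genes 15 were tested and 0 passed the adjusted threshold in limma. An unadjusted p under 0.05 was seen in 2, 13.3%, both lower in APOE4 livers, against 7.16% of all tested genes (2.23% lower). The median difference was -0.09, with 6 above 0 and 9 below. Colec11, a soluble collectin of the lectin pathway, averaged 10.81 ± 0.16 log2 in APOE4 livers and 11.09 ± 0.17 log2 in APOE3 livers (SD, n = 5 each), a difference of -0.29 ± 0.11 (SE) with limma adjusted p = 0.584, and its other probe set gave 0.05. C3ar1, the receptor for the C3a fragment, had 3.63, 4.06, 3.59, 3.93 and 3.55 log2 in APOE4 livers, against 4.00, 5.01, 4.36, 6.48 and 3.73 log2 in APOE3 livers. Of these, 4 APOE4 and 2 APOE3 arrays were below 4, so the difference of -0.97 ± 0.43 (SE) has no sure scale, and APOE3 replicate 4 was again the highest animal. Cpn1, a carboxypeptidase that inactivates complement fragments, differed by 0.21 ± 0.10 (SE) with limma adjusted p = 0.634.

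Of 33 further coagulation genes 17 were tested, with 14 differences above 0 and 3 below and a median of 0.16, beside 0.04 over all tested genes. Over all 8535 tested genes, 5088 differences were above 0. How far this split depends on the scaling or on single animals is not given here. None passed the adjusted threshold, and by their brightest probe sets 0 had an unadjusted p under 0.05 in limma, against 7.16% of all tested genes. Dimmer probe sets of Ggcx (0.40), F2r (-0.55) and Proz (0.40) were under it, at 0.0148, 0.0355 and 0.00406 (limma, unadjusted). The dimmer tested probe sets of Lman1 and Habp2 were not. Over all tested probe sets 8.00% were under it. Among the brightest probe sets the smallest p belonged to Hgfac, a protease that activates hepatocyte growth factor. Hgfac averaged 10.14 ± 0.23 log2 in APOE4 livers and 9.79 ± 0.32 log2 in APOE3 livers (SD, n = 5 each). Its difference was 0.36 ± 0.16 (SE) with limma adjusted p = 0.633. Mcfd2, part of the cargo receptor that carries factors V and VIII out of the endoplasmic reticulum, differed by 0.19 ± 0.09 (SE), and F2r, a thrombin receptor, by -0.40 ± 0.19 (SE).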

How the data were processed

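The authors deposited log2 expression values, 1 per probe set and array. The submitters' processing notes name GCRMA 2.12.1, a method that corrects background and normalizes arrays together, and R 2.7.1. No probe filter is named, and the genome build was not given in the sources used here. Groups and replicate numbers came from the sample titles, the labels state 1 extract for each animal, and 0 value columns belonged to no sample.

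After 64 control probe sets were left out, the 14732 probe sets with a mean of at least 4 over all arrays were fitted on genotype alone in limma 3.58.1 (R 4.3.3; lmFit, then eBayes with no trend; two-sided tests), and p-values were adjusted over all of them by Benjamini-Hochberg at a threshold of 0.05. Gene names came from the platform annotation; 932 probe sets with several symbols were not named. GCRMA compresses undetected transcripts toward a floor, so differences near 4 have no sure scale. Precision is limited by the number of arrays. The fit was tested on simulated data. Correlations used Python 3.11.15 with exact permutations, and figures matplotlib 3.10.9. Promoter windows came from RefSeq GRCm38.p6.

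The genes and lists were chosen with earlier results of these data known. Genes were described in full where they passed, did not overlap, were among the 10 smallest unadjusted p, or had the highest mean in their role, 21 in all; further genes follow the correlation pairs, the animals that stood apart and the other lists, for which the 3 smallest p were named. Alternatives were other filters, array weights, eBayes with a trend or robust, centring, renewed quantile normalization, a floor of 4, means over probe sets, a replicate block and fits without single animals.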

Additional observations from a re-analysis of the deposited data

Results flagged for a closer look

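Among the 82 groups of 5 animals, 41 genes in each genotype, 7 held an animal whose gap to its neighbour exceeded 0.71 of the group's range, 8.54%, beside 6.07% over all tested genes. Chance gives this in about 1 in 20 groups. Low animals were APOE4 replicate 1 for Masp2, at 9.02 log2 against 9.39 to 9.47 in the other APOE4 animals, and APOE3 replicate 1 for C8b, Vtn and F11. APOE3 replicate 1 had 7.59 log2 for C8b against 9.53 to 9.98 in the other APOE3 animals, 12.76 for Vtn against 13.06 to 13.17, and 8.12 for F11 against 8.91 to 9.17. High animals were APOE3 replicate 4 for Cfp, at 8.99 log2 against 7.40 to 7.83 in the other APOE3 animals, and for C6, at 6.35 against 4.17 to 4.78. APOE4 replicate 5 was high for F2, at 13.37 log2 against 13.15 to 13.20 in the other APOE4 animals. APOE3 replicate 1 thus accounted for 3 of the 7 and APOE3 replicate 4 for 2.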

How the results depend on the processing

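The count of probe sets passing the adjusted threshold was 0 in all 22 fits. The count of the 41 genes at an unadjusted p of 0.05, which was 1, was 3 with no filter. It was 2 with a mean of at least 6 required, an eBayes trend, array weights, renewed quantile normalization, centring and means over probe sets. Without APOE3 replicates 1 and 4, a setting chosen after seeing the data, it was also 2. The share of all tested probe sets at that p was 8% in the main fit and 8.21% with no filter. In the other settings named it ran from 7.11% (renewed quantile normalization) to 10.2% (without APOE3 replicates 1 and 4). With means over probe sets it was 7.1% of genes. Leaving out 1 animal gave 1 to 2, the higher count without APOE4 replicate 3 or 4 or APOE3 replicate 1, 4 or 5. The share of all tested probe sets was then 6.2% to 11.4%. The count of genes without overlap was 0, against 1.75% of all tested genes. It was 1 after renewed quantile normalization, 2 after centring and 3 without APOE3 replicates 1 and 4. Leaving out 1 animal gave 0 to 1, the higher count without APOE4 replicate 4 or APOE3 replicate 1. The share over all tested genes was not computed for these settings, and smaller groups separate more often by chance. C9 was below 0 in all 22 fits. The median difference ran from -0.06 to 0.06 in complement and from -0.01 to 0.06 in coagulation when 1 animal was left out.

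With renewed quantile normalization, r (exact permutation, adjusted over 6 pairs) was 0.469 for Fga with Fgb, 0.742 for Fga with Fgg, 0.63 for Fgb with Fgg and 0.861 for C8a with C8b, none past 0.05. Leaving out 1 animal gave 0.716 to 0.954 for Fga with Fgb, 0.762 to 0.914 for Fga with Fgg and 0.494 to 0.904 for C8a with C8b. Calls were lost without APOE4 replicate 2 for these 3 pairs, and for C8a with C8b also without APOE4 replicate 4 or APOE3 replicate 1 or 4. The cause was not tested.

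The fit with the replicate block gave 0 adjusted calls and 1 at an unadjusted p of 0.05, C9, with a smallest adjusted p of 0.537 (limma). Animals with the same number correlated at -0.079 to 0.414 and 2 of 5 correlated best with their own number. No pairing by number was evident, but these correlations cannot exclude one. With 5 animals per genotype, differences inside the 95% intervals could not be shown, and no batch could be tested.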

Other observations

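The C1q genes encode the recognition molecule of the classical pathway and are made largely by macrophages. They were highest in APOE3 replicate 4, where 8 of 11 Kupffer cell and macrophage markers were at their highest and 1 at its lowest. C1qa had 9.50, 8.78, 8.73, 9.32 and 8.86 log2 in APOE4 livers, against 9.10, 9.33, 9.15, 10.32 and 9.06 log2 in APOE3 livers, with a difference of -0.35 ± 0.25 (SE) and limma adjusted p = 0.735. C1qb and C1qc gave differences of -0.27 ± 0.21 (SE) and -0.21 ± 0.27 (SE), with that animal at 11.19 and 9.07 log2. The 11 tested Kupffer cell and macrophage markers had a median difference of -0.23, with 2 above 0 and 9 below, and none passed (limma, smallest adjusted p = 0.634).

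Of the 18 acute phase genes, none passed the adjusted threshold in limma, and the median difference was 0.01 with 9 genes on each side of 0. Only 1 had an unadjusted p under 0.05, 5.56% against 7.16% of all tested genes. That gene was Apcs, the acute phase pentraxin of the mouse, which had 11.91, 11.55, 11.96, 12.14 and 11.94 log2 in APOE4 livers, against 11.45, 11.32, 11.72, 11.19 and 11.49 log2 in APOE3 livers. Its difference was 0.47 ± 0.13 (SE) with limma adjusted p = 0.46, and the groups overlapped.

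Chosen after its values were seen, the dimmer probe set of Proz, for the anticoagulant protein Z, did not overlap between genotypes. It ran from 8.55 to 8.78 log2 in APOE4 livers, against 8.04 to 8.48 in APOE3 livers. Its difference was 0.40 ± 0.11 (SE) with limma adjusted p = 0.452, while the brighter Proz probe set gave -0.09 ± 0.12 (SE). Of all tested probe sets, 2.02% did not overlap between genotypes.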
